A study of Mus musculus with 4 samples.

Results

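Mid-size H3K4me2 domains that held several LSD1 peaks were described in mouse embryonic stem cells. Autosomal H3K4me2 peaks no more than 1 kb apart were joined into 23226 domains. Of these, 10503 spanned 1 kb to under 5 kb and touched no IgG peak. The 362 domains described here also overlapped 2 or more LSD1 peaks by at least 1 bp. Of the other domains of that width, 2598 held 1 LSD1 peak and 7543 held none. The domains were thus chosen by the peak calls of the LSD1 and H3K4me2 libraries, and values of these libraries in them are descriptions without a test.

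R1 is a mouse embryonic stem cell line of 129SV origin, here kept on gelatin with leukaemia inhibitory factor (LIF, 1000 U/ml) and used at passages 13 to 18. Chromatin of such cells, fixed with formaldehyde and sonicated, gave all 4 groups: Input, which is DNA set aside without an antibody, and immunoprecipitates with control IgG, an LSD1 antibody or an H3K4me2 antibody. Each group held 1 library. Reads numbered 3801082 in Input, 4755619 in IgG, 5833862 in LSD1 and 6416657 in H3K4me2. The supplier's catalogue number that the labels give for the LSD1 antibody is known as that of an antibody against trimethylated lysine 27 of histone H3, so the name LSD1 here follows the label. With 1 library per group there was no replicate check and no p-value. All intervals are 95% intervals for counting error within these libraries. Values are reads per 1000000 reads of a library (RPM), or RPM per kb for a density.

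Dimethylation of lysine 4 of histone H3 marks nucleosomes at promoters and enhancers. At an active promoter the mark usually lies on both sides of a stretch depleted of nucleosomes, so that 1 regulatory element can appear as a pair of H3K4me2 peaks. LSD1 (KDM1A) is a demethylase of mono- and dimethylated lysine 4 that works in complexes with CoREST and histone deacetylases. In embryonic stem cells it is known from enhancers and promoters of active genes.

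Most of the 362 domains held the smallest number of LSD1 peaks that the rule allowed. There were 335 domains with 2 LSD1 peaks, 25 with 3 and 2 with 4, or 753 LSD1 peaks in all. Their width ranged from 1083 to 4994 bp with a median of 2498.5 bp, against medians of 1848 bp for domains with 1 LSD1 peak and 1602 bp for domains without. A domain was made of 1 H3K4me2 peak in 98 cases, of 2 in 181, of 3 in 58, of 4 in 22 and of 5 in 3. Reads per domain had a median of 68 in LSD1 (range 31 to 280), 115 in H3K4me2 (40 to 395), 14 in IgG (3 to 121) and 3 in Input (0 to 50). Every one of the 362 domains held IgG reads, while 31 held no Input read, which allows up to 3 reads or 0.789 RPM each.

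The share of domains with several LSD1 peaks was higher in each wider class. It was 1.65% (exact Clopper-Pearson interval 1.36 to 1.98) of domains of 1 to 2 kb, 5.01% (4.20 to 5.93) of those of 2 to 3 kb and 9.53% (7.54 to 11.8) of those of 3 to 4 kb. In the widest class, 4 kb to under 5 kb, it was 15.0% (11.2 to 19.3). A wider domain has more room for a further peak, and the effect of that room was not separated here. Among domains with at least 1 LSD1 peak, those with several made up 6.98% in the narrowest class and 28.9% in the widest.

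Neighbouring LSD1 peaks of a domain lay close together. The 753 peaks bounded 391 stretches, measured from the end of an LSD1 peak to the start of the next. Their length had a median of 377 bp, with quartiles of 103 and 752 bp and a range of 1 to 3271 bp. From centre to centre the median was 889.5 bp, and no pair of centres was closer than 335.5 bp. The shortest class was also a large one: 96 stretches (24.6%) were under 100 bp. A further 74 measured 100 to 300 bp, 83 measured 300 to 600 bp, 77 measured 600 to 1000 bp and 61 were 1000 bp or longer. Spacing widened with the domain, which limits it, with medians of 164 bp in domains of 1 to 2 kb, 423.5 bp in those of 2 to 3 kb, 483 bp in those of 3 to 4 kb and 794 bp in the widest class. In the domains of 5 kb or more outside the group, 135 such stretches had a median of 1138 bp.

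**Figure D1:**
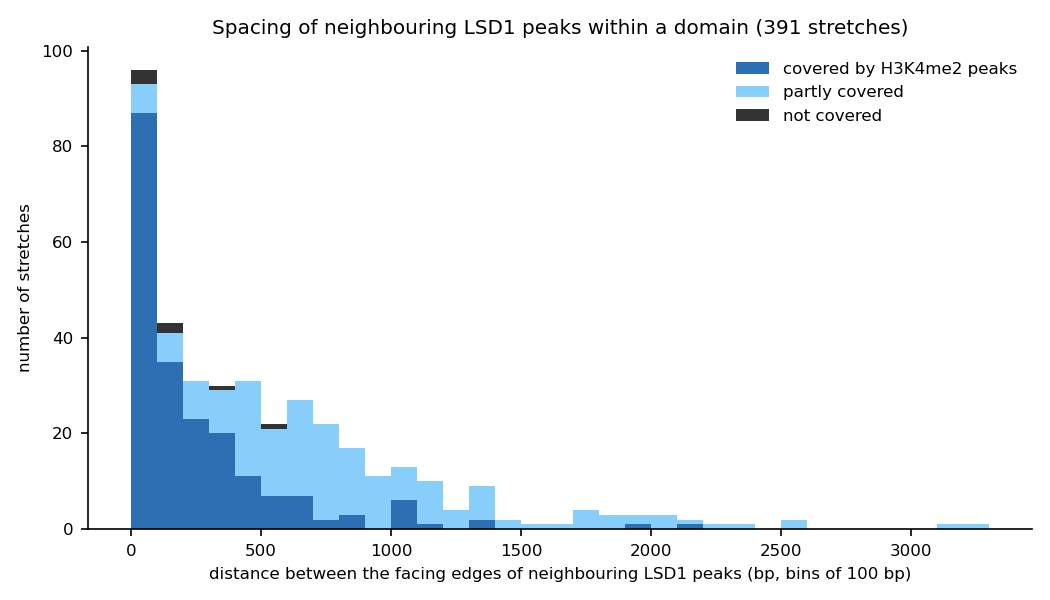
Number of stretches (vertical axis) by the distance in bp between facing edges of neighbouring LSD1 peaks of the same domain, in bins of 100 bp; colours give whether H3K4me2 peaks cover all, part or none of the stretch. The first bin holds 96 of the 391 stretches, 87 of them fully covered, while partly covered stretches fill most bins from 400 bp upward.

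The plot of stretch lengths separates stretches that run within H3K4me2 peaks from those that cross a break between them. H3K4me2 peaks covered 206 stretches in full, and these were short, with a median of 135.5 bp. Another 178 stretches were covered in part and had a median of 720.5 bp. The remaining 7 had no H3K4me2 peak at all. Of the 96 stretches under 100 bp, 87 were fully covered, against 11 of the 61 stretches of 1000 bp or more. Long stretches have more room for such a break.

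In the 335 domains with 2 LSD1 peaks, 2 arrangements were about equally common. Both LSD1 peaks touched the same H3K4me2 peak and no other in 151 domains (45.1%, 39.7 to 50.6), and they touched different H3K4me2 peaks in 167 (49.9%, 44.4 to 55.3). In 16 domains they shared 1 of several H3K4me2 peaks, and in 1 domain an LSD1 peak overlapped only the joined break. Among the 169 of these domains made of exactly 2 H3K4me2 peaks, 108 (63.9%, 56.2 to 71.1) had 1 LSD1 peak in each. LSD1 peak centres lay on either side of the domain midpoint in 236 of the 335 domains (70.4%, 65.2 to 75.3).

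To place the centres of all 753 LSD1 peaks, each domain was divided into 5 equal parts. The middle part held 139 centres (18.5%, 15.8 to 21.4) and the parts at both ends held 271 (36.0%, 32.6 to 39.5). In domains with 1 LSD1 peak these shares were 24.0% (22.4 to 25.7) and 23.9% (22.2 to 25.6). Placing 2 peaks that do not overlap in a domain itself pushes centres outward, and this was not corrected. At the ends, 82 of the 753 peaks reached past their domain, and 7 had under 50% of their width inside it.

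Between the peaks the LSD1 signal fell to a plateau and did not reach the level outside the domain. LSD1 density was 7.22 RPM per kb in the LSD1 peaks, 3.05 in the 391 stretches between them (207 kb in all) and 1.32 in the 1 kb on either side of the domains. H3K4me2 density was 9.00, 5.71 and 1.79 RPM per kb in the same places. IgG stood at 1.30, 1.20 and 0.790, and Input at 0.360, 0.396 and 0.540. The outer parts of the domains, beyond the first and last LSD1 peak, had 3.28 RPM per kb of LSD1 and 6.43 of H3K4me2. IgG stood at 1.05 and Input at 0.440 there. Both ChIP libraries were thus lower between the peaks than in them, and lower still in the flanks. IgG was near its level in the peaks between them, lower in the outer parts and lowest in the flanks. Input was highest in the flanks. Divided by the density in the peaks, the stretches stood at 0.423 (0.408 to 0.438) for LSD1 and 0.634 (0.618 to 0.651) for H3K4me2. The same ratio was 0.920 (0.857 to 0.987) in IgG and 1.10 (0.953 to 1.27) in Input. The LSD1 value is in part set by the calls, which end a peak where LSD1 reads thin out. The H3K4me2 value is in part set by the H3K4me2 calls, as 178 stretches were covered only in part by H3K4me2 peaks. Set against IgG, LSD1 was 5.54-fold higher (5.30 to 5.78) in the peaks, 2.54-fold (2.38 to 2.72) between them and 1.68-fold (1.60 to 1.76) in the flanks.

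**Figure D2:**
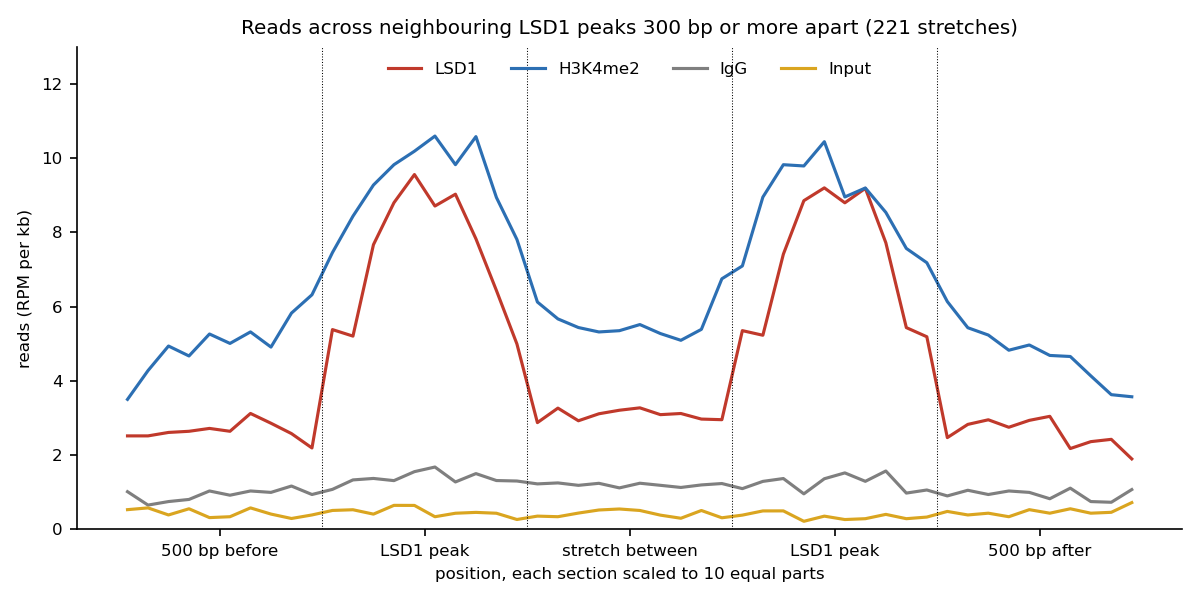
Reads in RPM per kb (vertical axis) of the 4 libraries across pairs of neighbouring LSD1 peaks 300 bp or more apart, 221 stretches, with the 500 bp before, each peak, the stretch and the 500 bp after each divided into 10 equal parts (horizontal axis). Within the stretch LSD1 runs between 2.87 and 3.27 RPM per kb from end to end, whereas H3K4me2 falls from the edges of the stretch and stays above LSD1.

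The scaled profile over the 221 stretches of 300 bp or more showed no further summit of LSD1 between the peaks. LSD1 was lower than in both neighbouring peaks in 220 of the 221, as it was in 99.8% of all 516 neighbouring autosomal LSD1 peaks 300 bp to under 5 kb apart. Since the calls choose this contrast, nothing is read from it. For H3K4me2, on which LSD1 peaks were not called, 166 of the 221 stretches (75.1%, 68.9 to 80.7) were lower than both neighbours, near the 75.8% of all such pairs, and 15 were higher than both. For IgG 65 stretches were lower (29.4%, 23.5 to 35.9; 35.7% of all such pairs) and 68 were higher than both. The dip in H3K4me2 thus occurred at a share close to that of neighbouring LSD1 peaks in general. It is in part set by the H3K4me2 calls, since stretches may cross breaks between H3K4me2 peaks. Over stretches of all lengths, H3K4me2 density was 7.91 RPM per kb in the 206 covered in full and 4.97 in the 178 covered in part.

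Within H3K4me2 peaks the LSD1 density between LSD1 peaks was close to that of H3K4me2 peaks elsewhere. Pieces of the stretches inside H3K4me2 peaks had 3.43 RPM per kb of LSD1. The outer parts of the same domains, beyond the first and last LSD1 peak, had 3.40 inside H3K4me2 peaks. In domains with 1 LSD1 peak the outer parts had 3.41, and in domains without an LSD1 peak the value was 3.44. As ratios, the stretches stood at 1.01 (0.965 to 1.05) of the outer parts, 1.01 (0.969 to 1.04) of those in domains with 1 LSD1 peak and 0.997 (0.960 to 1.03) of domains without. H3K4me2 densities there were near each other too, at 7.13, 6.92, 7.05 and 7.14 RPM per kb. All these pieces share the property that no LSD1 peak was called in them.

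The ratio to the first of these references depended on how far read starts were moved. It was 0.963 with starts not moved and 1.12 with a move of 150 bp. In the 87 domains with 20 or more LSD1 reads in each of at least 2 peaks it was 1.11 (1.01 to 1.21).

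The control reads were less even than the LSD1 reads. IgG in the stretch pieces inside H3K4me2 peaks was 1.14 (1.05 to 1.24) of the outer parts of the same domains and 1.17 (1.09 to 1.25) of domains without an LSD1 peak. Input was 0.877 (0.748 to 1.03) and 0.718 (0.626 to 0.819) of them. The LSD1 to IgG ratio in these pieces was accordingly 2.81 (2.60 to 3.04) between LSD1 peaks, against 3.18 (3.02 to 3.36) in the outer parts of the same domains and 3.30 (3.27 to 3.33) in domains without an LSD1 peak. With Input as the control the order turned, with 8.54 (7.45 to 9.84) between LSD1 peaks, 7.43 (6.83 to 8.09) in the outer parts and 6.15 (6.07 to 6.23) in domains without.

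Where a stretch crossed a break between H3K4me2 peaks, both ChIP libraries were lower. The 197 pieces outside H3K4me2 peaks, 62.7 kb in all, had 2.19 RPM per kb of LSD1, 2.43 of H3K4me2, 1.15 of IgG and 0.386 of Input. LSD1 relative to H3K4me2 was 0.904 (0.822 to 0.993) there, against 0.481 (0.460 to 0.502) in the pieces inside H3K4me2 peaks, which were chosen for high H3K4me2. Breaks in the outer parts of domains with 1 LSD1 peak had 2.30 RPM per kb of LSD1, so the breaks between LSD1 peaks stood at 0.953 (0.885 to 1.03) of them.

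The shortest stretches were profiled separately. As they are gaps between LSD1 calls, an LSD1 dip with a summit on each side is in part set by the calls. In the 96 stretches under 100 bp, 4.27 kb in all, there were 45 LSD1 reads, 200 H3K4me2 reads, 24 IgG reads and 4 Input reads. The LSD1 density was 1.80 RPM per kb, or 0.381 (0.274 to 0.517) of the 100 bp on either side, and 69 of the 96 held no LSD1 read. H3K4me2 stood at 0.907 (0.775 to 1.06) of the same sides. The LSD1 dip depended on how far read starts were moved: it was 0.192 (0.123 to 0.287) with starts not moved, 0.372 (0.271 to 0.499) with 35 bp and 0.942 (0.779 to 1.13) with 150 bp. Of the 753 LSD1 peaks, 363 started at the first base of a read on the plus strand and 382 ended at the first base of a read on the minus strand. These counts cover all peak edges and were not made for the stretches under 100 bp alone. When LSD1 peaks within 200 bp of each other were counted as 1, 241 domains held 2 or more LSD1 peaks in place of 362, with a median spacing of 652 bp.

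**Figure D3:**
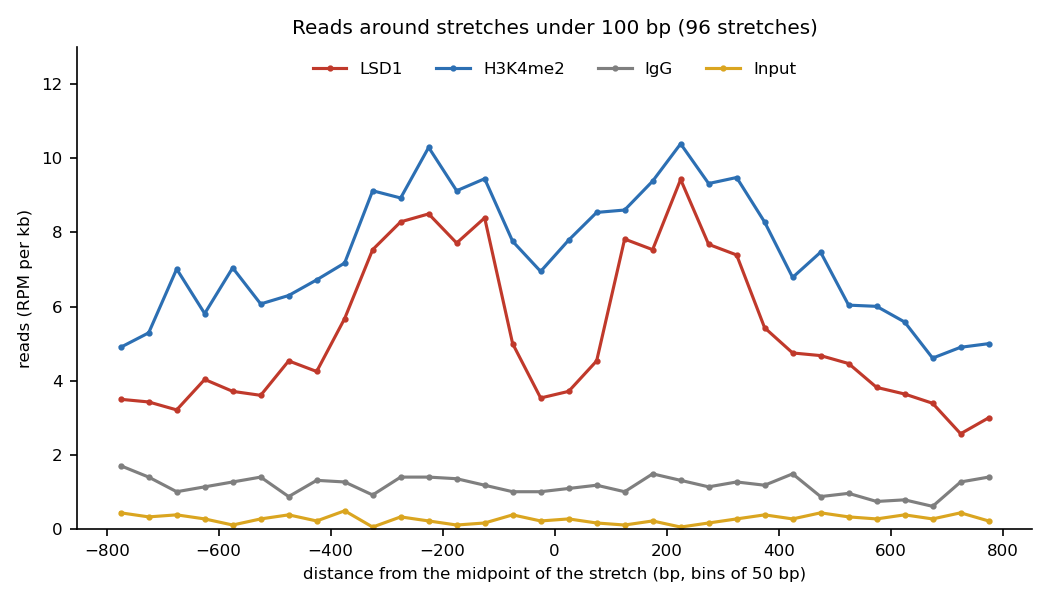
Reads in RPM per kb (vertical axis) of the 4 libraries by distance in bp from the midpoint of the 96 stretches under 100 bp, in bins of 50 bp. LSD1 falls from 8.50 RPM per kb at 225 bp before the midpoint to 3.54 just before it and rises again to 9.43, whereas H3K4me2 goes from 10.3 to 6.95 and back to 10.4.

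The plot of reads around these stretches shows LSD1 summits of similar height on both sides, where LSD1 peaks were called. IgG stayed between 0.920 and 1.49 RPM per kb within 425 bp of the midpoint, without a dip that stood out from its own scatter.

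The LSD1 peaks of a domain were compared with each other in size. In the 335 domains with 2 LSD1 peaks, the peak with more LSD1 reads held a median of 1.40 times the reads of the other, with quartiles of 1.17 and 1.79 and a maximum of 3.63. In 61 domains the ratio was at least 2, and in 70 the counting interval of the ratio, not adjusted for the number of domains, lay above 1. Taking the larger of 2 counts puts this ratio at 1 or above by construction. Counts of the 753 LSD1 peaks lay close together in any case, with a minimum of 10 reads and quartiles of 15 and 24. Pairs of peaks from different domains were not compared, so the ratio is not read as a trait of these domains. The peak denser in LSD1 was also the denser in H3K4me2 in 193 of the 335 domains (57.6%, 52.1 to 63.0). For IgG it was the denser in 150 of the 334 domains without a tie (44.9%, 39.5 to 50.4). For Input, with 116 ties, it was the denser in 120 domains and the less dense in 99. That share, 54.8% of the untied domains (47.9 to 61.5), had an interval overlapping that of H3K4me2.

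Compared with the single LSD1 peak of other domains of 1 kb to under 5 kb, these peaks were slightly narrower. Their median width was 455 bp (range 260 to 1669) against 487.5 bp, and their median counts were 18 LSD1 reads against 20, 25 H3K4me2 reads against 28, and 3 IgG reads in both. Densities were near each other, at 7.22 and 7.23 RPM per kb for LSD1 and 9.00 and 9.09 for H3K4me2. Over IgG, LSD1 stood at 5.54 (5.30 to 5.78) in peaks of domains with several and at 5.80 (5.67 to 5.94) in single peaks. LSD1 exceeded IgG at least 2-fold, with 0.5 reads added to each count, in 743 of the 753 peaks, beside 97.7% of all 5095 autosomal LSD1 peaks. The rule used the LSD1 calls, so nothing is read from this count.

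Whole domains were next set beside domains of the same width with 1 LSD1 peak or none. At 2 to 3 kb, the class with the most members, the 128 domains with several LSD1 peaks had 4.82 RPM per kb of LSD1, 7.30 of H3K4me2, 1.18 of IgG and 0.390 of Input. The 738 domains with 1 LSD1 peak had 4.15, 6.95, 1.11 and 0.454, and the 1688 without had 3.21, 6.34, 1.01 and 0.539, in the same order. LSD1 was thus higher with each step, H3K4me2 and IgG slightly higher and Input lower. Relative to domains with 1 LSD1 peak, the LSD1 density was 1.15 (1.12 to 1.18), 1.16 (1.14 to 1.19), 1.14 (1.11 to 1.17) and 1.16 (1.12 to 1.19) from the narrowest to the widest class. H3K4me2 stood at 1.00 (0.980 to 1.02), 1.05 (1.03 to 1.07), 1.03 (1.01 to 1.06) and 1.05 (1.03 to 1.07). The LSD1 difference is one that counting LSD1 peaks selects.

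**Figure D4:**
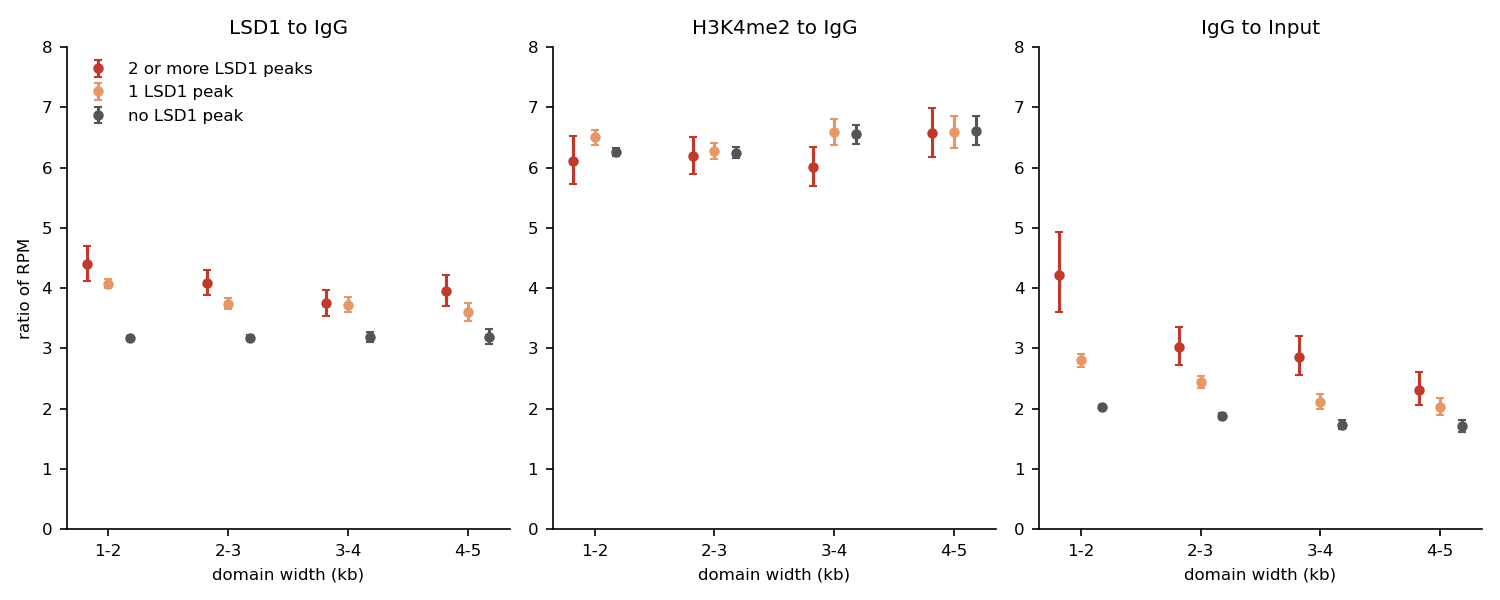
Ratios of RPM (vertical axes) of LSD1 to IgG, H3K4me2 to IgG and IgG to Input in domains of 4 width classes in kb (horizontal axes), for domains with 2 or more LSD1 peaks, 1 or none; points are pooled ratios and bars 95% counting intervals. H3K4me2 to IgG lies between 6.01 and 6.60 in every group, while IgG to Input is highest in domains with several LSD1 peaks in each width class.

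In the plot of ratios by width, LSD1 to IgG was 4.39 (4.11 to 4.70) in the narrowest domains with several LSD1 peaks and 4.07 (3.99 to 4.16) in those with 1. At 2 to 3 kb the values were 4.08 (3.88 to 4.30) and 3.74 (3.66 to 3.83), and the intervals did not overlap. Domains of 3 to 4 kb had 3.74 (3.54 to 3.97) and 3.72 (3.60 to 3.85), and the widest class had 3.96 (3.71 to 4.22) and 3.60 (3.45 to 3.76). Intervals overlapped in 3 of the 4 classes. At single domains, with 0.5 reads added to each count, LSD1 exceeded IgG at least 2-fold in 360 of 362, beside 90.8% of all 10503 domains of that width, and H3K4me2 exceeded IgG in 362, beside 99.9%. LSD1 exceeded Input at least 2-fold in 362, beside 98.8%. The rule used the LSD1 and H3K4me2 calls, so nothing is read from these counts. H3K4me2 to IgG over all 362 domains was 6.20 (6.03 to 6.38), against 6.44 (6.37 to 6.52) with 1 LSD1 peak and 6.30 (6.25 to 6.35) with none. By width, its interval lay apart from that of domains with 1 LSD1 peak only at 3 to 4 kb, where it was lower, 6.01 (5.69 to 6.35) against 6.59 (6.38 to 6.81).

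The ratio of the 2 controls differed between the groups. IgG to Input was 2.95 (2.78 to 3.12) over the 362 domains, 2.47 (2.41 to 2.53) over domains with 1 LSD1 peak and 1.93 (1.90 to 1.96) over those without. It was higher with several LSD1 peaks than with 1 in each width class, from 4.21 (3.61 to 4.93) against 2.80 (2.69 to 2.91) at 1 to 2 kb to 2.32 (2.06 to 2.60) against 2.03 (1.89 to 2.18) at 4 to 5 kb, where the intervals overlapped. By domain, IgG exceeded Input at least 2-fold in 274 of 362 (75.7%), beside 51.0% of all 10503 domains of that width and 62.1% of those with 1 LSD1 peak. Against Input, LSD1 reads were 11.9-fold (11.3 to 12.5) higher over the 362 domains and 9.55-fold (9.35 to 9.76) higher with 1 LSD1 peak, a wider distance than against IgG. In the 87 domains with 20 or more LSD1 reads in each of at least 2 LSD1 peaks, IgG to Input was lower, at 2.41 (2.18 to 2.67). Which control was used in calling the peaks is not given in the sources used here, so these values may depend on the choice of domains. The part of the controls in the LSD1 values was not tested.

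In both domains with 4 LSD1 peaks the reads per peak lay on either side of the median of 18 LSD1 reads over all 753 peaks. On chromosome 9 the domain from 108468295 to 108473198 held 134 LSD1, 243 H3K4me2, 26 IgG and 7 Input reads, with an LSD1 to IgG ratio of 4.20 (2.75 to 6.66). Its LSD1 peaks held 24, 15, 16 and 23 LSD1 reads, and the stretches between them measured 181, 34 and 994 bp with 2, 0 and 11 LSD1 reads. The longest of these crossed the break between the second and the third H3K4me2 peak. On chromosome 2 the domain from 26357154 to 26360476 held 102 LSD1, 172 H3K4me2, 18 IgG and 2 Input reads, with a ratio of 4.62 (2.78 to 8.10). Its peaks held 26, 12, 14 and 22 LSD1 reads. The stretches of 698, 336 and 284 bp between them lay within H3K4me2 peaks and held 17, 7 and 6 LSD1 reads, with 25, 22 and 16 H3K4me2 reads.

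The domain on chromosome 17 from 3081454 to 3084729 had the most reads in each library. It held 280 LSD1, 395 H3K4me2, 121 IgG and 50 Input reads. Its LSD1 to IgG ratio was 1.89 (1.52 to 2.35) and its H3K4me2 to IgG ratio 2.42 (1.97 to 2.99). The LSD1 to IgG ratio was lower in 1 other domain, on chromosome 5 from 113566695 to 113568161, which is named after its values were seen. That domain held 36 LSD1, 55 H3K4me2, 16 IgG and 2 Input reads, and its ratio of 1.83 (0.992 to 3.54) had the only interval of the 362 that reached 1. On chromosome 17 the 2 LSD1 peaks, 1669 and 687 bp wide, held 197 and 82 LSD1 reads, and the 928 bp between them held 2 LSD1, 11 H3K4me2, 2 IgG and 2 Input reads, so that all 4 libraries fell together. Without the chromosome 17 domain the LSD1 to IgG ratio over the rest was 4.07 in place of 4.02, and the ratio between LSD1 peaks 2.55 in place of 2.54.

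**Figure D5:**
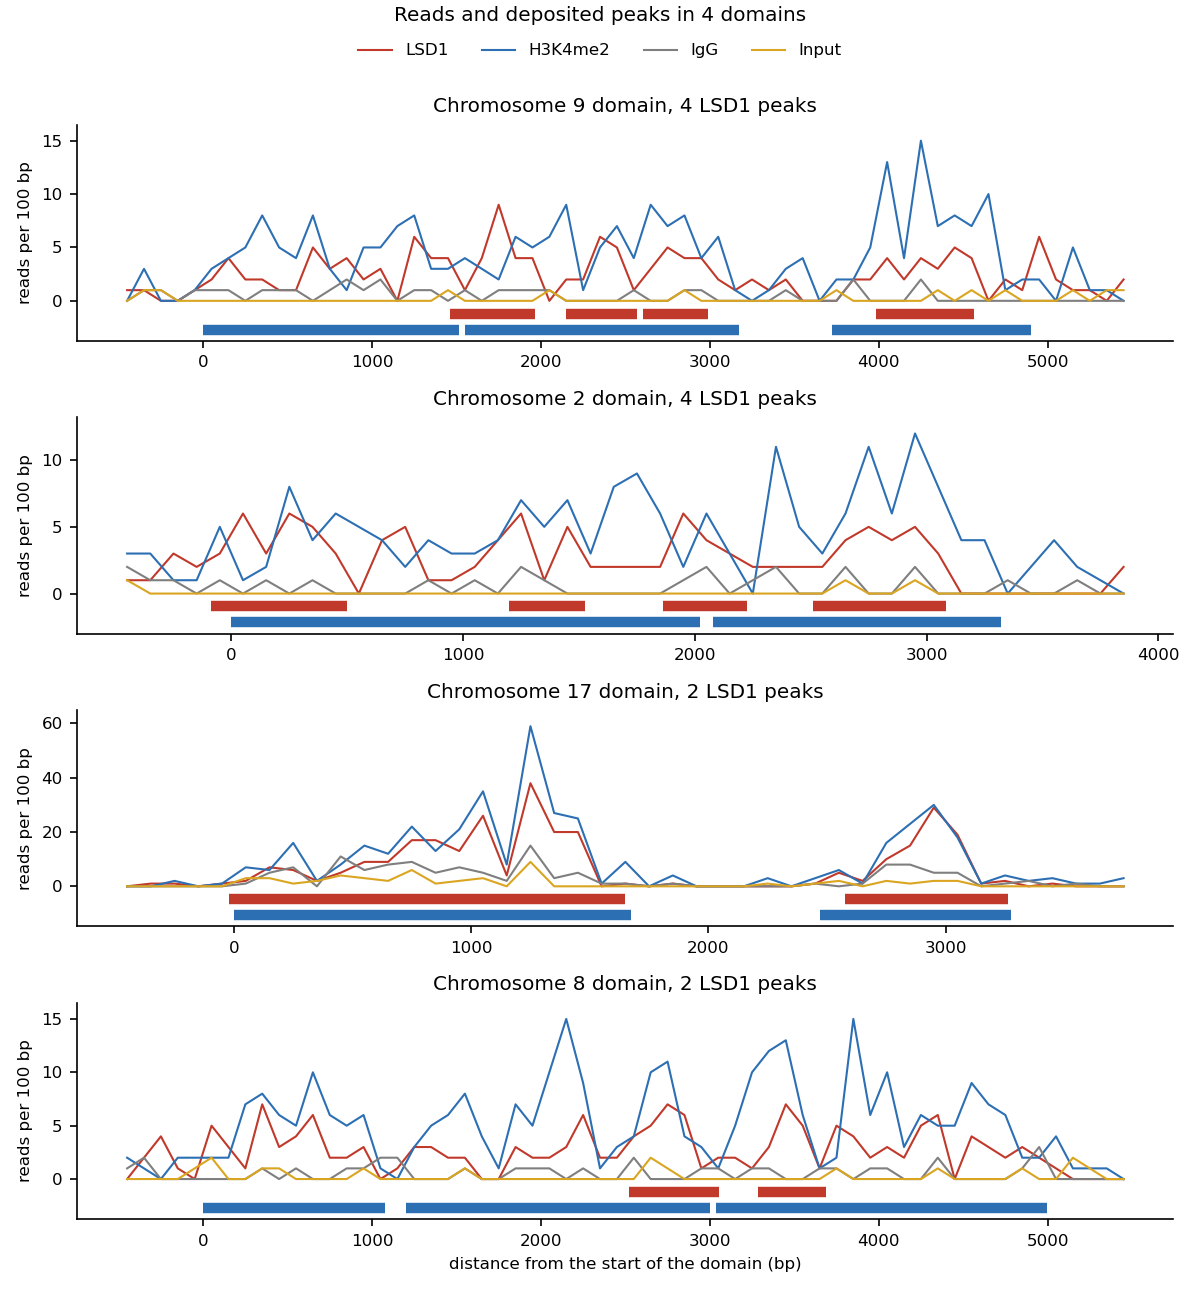
Reads per 100 bp (vertical axes) of the 4 libraries by distance in bp from the start of the domain, with the deposited LSD1 peaks (red bars) and H3K4me2 peaks (blue bars) below, for both domains with 4 LSD1 peaks and the first 2 domains by LSD1 reads. In the chromosome 17 domain IgG and Input follow the ChIP libraries, whereas in the other 3 they stay at 3 reads per 100 bp or less.

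The map of 4 domains includes that on chromosome 8 from 73131092 to 73136085, the next by LSD1 reads and the widest of all 362. It held 152 LSD1, 293 H3K4me2, 29 IgG and 12 Input reads. Its 2 LSD1 peaks, with 24 and 16 reads, were 230 bp apart and held a minor part of its LSD1 reads, and the domain was 4.27-fold over IgG (2.86 to 6.60). The domain on chromosome 7 from 148040679 to 148044728, a single H3K4me2 peak with 3 LSD1 peaks, held 140 LSD1, 225 H3K4me2, 32 IgG and 7 Input reads. Next came a domain of chromosome 19 (45088727 to 45093588) with 138 LSD1 reads and 1 of chromosome 3 (89195357 to 89200167) with 136. By H3K4me2 reads, the first 5 included 3 further domains. They were found on chromosome 7 (52959045 to 52963968, 281 reads), chromosome 10 (79856603 to 79861545, 267 reads) and chromosome 9 (57349999 to 57354534, 262 reads). Their LSD1 to IgG ratios were 4.08 (2.66 to 6.47), 3.60 (2.39 to 5.59) and 3.37 (2.25 to 5.20).

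The widest stretches held more reads than the peaks that bounded them. On chromosome 7 the LSD1 peaks of the domain from 126135486 to 126139656 were 3271 bp apart, and the stretch held 67 LSD1, 179 H3K4me2, 18 IgG and 12 Input reads, beside 18 and 15 LSD1 reads in the peaks. H3K4me2 per kb in it was 1.02 times that of the peaks, while LSD1 was 0.545 (0.354 to 0.854). The next measured 3118 bp (chromosome 17, 34740252 to 34743369), 2585 bp (chromosome 9, 107530350 to 107532934) and 2570 bp (chromosome 8, 81552201 to 81554770). They held 59, 49 and 40 LSD1 reads, at 0.495, 0.420 and 0.391 of the density in their peaks, whereas H3K4me2 stood at 1.10, 0.891 and 1.04. In these 4 stretches LSD1 was thus lower than in the peaks, in part by the calls, while H3K4me2 was near their level. The 61 stretches of 1000 bp or more differed from this, with H3K4me2 at 0.673 (0.642 to 0.706) of the peaks. LSD1 stood at 0.452 (0.425 to 0.480) there. Some bounding peaks of the 4 stretches reached past the domain, such as that on chromosome 9 from 107532935 to 107533276, with 3 H3K4me2 reads.

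At the other end, the shortest stretch was a single base, on chromosome 7 at 134489690, between peaks of 31 and 15 LSD1 reads. Stretches of 2 bp followed on chromosome 7 from 148108500 and on chromosome 3 from 88244995, and 1 of 3 bp on chromosome 18. None of these 4 held a read of any library, which their length alone makes likely.

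Of the 53 stretches of 300 bp or more with at least 20 LSD1 reads in both neighbouring peaks, the highest LSD1 density relative to the peaks was 0.676 (0.328 to 1.28). It was found on chromosome 9 from 107529238 to 107529649, in a domain with 3 LSD1 peaks, with 12 LSD1, 7 H3K4me2, 3 IgG and 4 Input reads. Values of 0.671 (chromosome 4, 55543398 to 55543757), 0.660 (chromosome 8, 109395381 to 109396066) and 0.628 (chromosome 19, 44370288 to 44371597) followed. The lowest was 0.0182 in the chromosome 17 domain described above. Then came 0.0752 (0.00890 to 0.284) on chromosome 9 between 106355957 and 106356541, 0.0857 on chromosome 11 between 74645630 and 74645930, and 0.118 on chromosome 19 between 7491949 and 7492669. These 3 held 2, 1 and 4 LSD1 reads, with 8, 10 and 10 H3K4me2 reads. H3K4me2 peaks covered 84.5% to 100% of the first 4 stretches and 14.0% to 64.8% of the last 4. These are extremes picked on LSD1 density. Over all stretches the LSD1 density was 3.54 RPM per kb in the 206 covered in full and 2.89 in the 178 covered in part.

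Domains with several LSD1 peaks were spread over all 19 autosomes. Chromosome 11 held the most, with 41, followed by chromosome 7 with 39. As a share of the domains of 1 kb to under 5 kb, chromosome 19 was highest with 22 of 399 (5.51%, 3.49 to 8.23) and chromosome 14 lowest with 5 of 328 (1.52%, 0.497 to 3.52), and these intervals overlapped. Of the 362 domains, 58 lay within 50 kb of another of them and 12 within 10 kb. Such distances were not measured for other domains of that width, so these counts are not read as clustering.

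At the limits of the rule, the widest domain, of 4994 bp, had 152 LSD1 reads, and the next wider domain with 2 LSD1 peaks, of 5037 bp on chromosome 11, had 100. The narrowest, of 1083 bp on chromosome 11, had 43 LSD1 reads, and the next narrower, of 994 bp on chromosome 15, had 31. A domain on chromosome 4 from 136109948 to 136111303 with 2 LSD1 peaks was left out because it touched an IgG peak. It held 43 LSD1, 33 H3K4me2, 29 IgG and 1 Input reads. A further LSD1 peak lay outside but within 200 bp of the domain in 8 of the domains with 1 LSD1 peak.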

How the data were processed

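The authors deposited aligned reads on mm9 (build per the submitters' processing notes) as 1 line of 36 bases per read, so a count here is a number of deposited lines; no start and strand occurs more than once in a library. They also deposited peak positions for IgG, LSD1 and H3K4me2, without scores. Not given in the sources used here were the aligner, the peak caller, its threshold and its control. Each read start was moved 100 bp along its strand and counted where it fell; the library size was all reads. Intervals at 95% were exact: for a ratio, from the binomial share of 1 library in the summed reads, scaled by library size or length; for a share, Clopper-Pearson. Calls of a 2-fold difference used 0.5 added reads. Reads are not independent molecules beyond the collapsing of copies, so intervals and the floor of 3 reads cover counting error only. Domains, stretches and outer parts were built from peak positions, 1-based in mm9. The code was tested on simulated data. Python 3.11.15, numpy 2.4.6, scipy 1.17.1, pandas 2.3.3 and matplotlib 3.10.9 were used. Named domains were those with 4 or more LSD1 peaks, the 5 with the most LSD1 and the 5 with the most H3K4me2 reads; named stretches were the 4 widest and 4 narrowest, and the 4 highest and 4 lowest in LSD1 density relative to both peaks. Members and lists were chosen with earlier results of these data known. No mm9 genome or annotation was used here, so no domain was assigned to a gene, prepared gene lists were not run and no sequence is shown. Alternatives varied the joining distance, peak counting, read shift, control, library size and domain choice.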

Additional observations from a re-analysis of the deposited data

How the results depend on the processing

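Over 10 results, 74 alternative values were computed; 45 stayed within the interval of the value reported (a count within 1.5 times), 29 moved beyond it and 0 reversed a ratio whose interval excluded 1. Alternatives without the domain with the most IgG reads, and all for the density against outer parts and for stretches under 100 bp, were chosen after seeing the data; leaving out that domain moved no result beyond its interval. No paired analysis was possible because all 4 groups had a single library. The cause of a move was not tested unless the alternative's construction gives it. Counting LSD1 peaks within 200 bp as 1 gave 241 domains and a median distance of 652 bp. Domains under 2 kb gave a median distance of 164 bp, LSD1 to IgG between peaks of 2.28, between-to-peak densities of 0.384 for LSD1 and 0.589 for H3K4me2, LSD1 to IgG of 4.39, IgG to Input of 4.21 and a density against outer parts of 0.952. Domains of 2 kb or more gave 540 bp and IgG to Input of 2.75. The 87 domains with 20 or more LSD1 reads in 2 peaks gave 0.401 for LSD1 and 0.569 for H3K4me2 between peaks, IgG to Input of 2.41, H3K4me2 to IgG of 5.91 and 1.11 against outer parts. Input as control gave 7.70 between peaks, 11.9 for LSD1 and 18.3 for H3K4me2 over domains. Library sizes outside all peaks gave 2.75, 4.35 and 7.52 for the same 3. With starts not moved, LSD1 between peaks stood at 0.396 of the peaks, at 0.963 of outer parts and, in stretches under 100 bp, at 0.192 of their sides; with 150 bp the last 2 were 1.12 and 0.942. Leaving out 100 bp at each end of stretches gave 0.603 for H3K4me2 between peaks and 1.08 for LSD1 against outer parts. Depth limits values of single stretches: 97 of the 221 stretches of 300 bp or more held no Input read and 6 no IgG read.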

Other observations

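Several LSD1 peaks in a domain were not confined to the width class described. Outside it, 15 autosomal domains under 1 kb and 79 of the 344 domains of 5 kb or more held 2 or more LSD1 peaks, the latter counted whether or not they touched an IgG peak. On chromosomes X and Y, 0 domains met the rule. Over all autosomes, 746 pairs of neighbouring LSD1 peaks were under 5 kb apart, and 391 of these pairs lay within the domains described. Of the 129 pairs under 100 bp apart, 96 lay in them, and of the 61 pairs 4000 to 5000 bp apart, 0 did.

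In the 25 domains with 3 LSD1 peaks, the shorter of the 2 stretches had a median of 99 bp and the longer a median of 483 bp. Sorting the 2 stretches by length sets this order by construction, so no uneven spacing is read from it. Over the 25 domains LSD1 reads were 4.22-fold over IgG (3.80 to 4.70), against 4.00-fold (3.88 to 4.13) in domains with 2 LSD1 peaks. In domains whose 2 LSD1 peaks touched the same single H3K4me2 peak, LSD1 density between them was 3.51 RPM per kb and H3K4me2 density 7.90, against 2.89 and 4.93 where they touched different H3K4me2 peaks. LSD1 to IgG between the peaks was 2.84 (2.45 to 3.31) in the former and 2.41 (2.23 to 2.62) in the latter. The H3K4me2 contrast is in part set by this grouping, since only stretches between different H3K4me2 peaks can hold a break.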
